A study of Mus musculus with 22 samples.

Results

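All 10 liver tumours were set against 1 wild-type liver, and the genes described are those for which each of the 10 tumours lay on the same side of the liver value by at least 1 log2 unit, which is a 2-fold difference. Of 14653 features with values on both arrays of all 11 RNA samples, 77 lay at least 1 log2 unit higher in every tumour (0.525%) and 26 lay at least 1 log2 unit lower in every tumour (0.177%). A feature is a gene, with its probes averaged, or a single probe without a gene name. The higher set held 61 named genes and the lower set 15. Counting any distance, 14.1% of the features lay above the liver in every tumour and 9.38% below. Counts of list members below are to be read beside these shares. All gene lists were chosen with earlier results of these data known, so their counts are descriptions alone. The liver is 1 RNA sample, so its own spread is unknown, and the tumour-to-liver differences are given as descriptions without a test.

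The tumours were hepatocellular carcinomas from 2 kinds of mice of mixed genetic background. In 6 of them, called IkB-SR, the biallelic Mdr2 knockout was combined with an IkB super-repressor, which blocks NF-kB, under a tetracycline-regulated promoter, with the transactivator driven in hepatocytes by the TALAP1 transgene. The other 4, called Mdr2-KO, carried the knockout alone. The wild-type liver came from the same background, carried neither change, and its label does not say whether 1 animal or several were used. Neither age nor treatment is given in the labels, sex is given as unknown, the stage of the liver is entered as carcinoma, and the extraction text names mouse skin. Each RNA was hybridised against a universal mouse reference RNA on a pair of 2-colour arrays with the dyes swapped.

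Mdr2 (gene symbol Abcb4) moves phosphatidylcholine into bile, and mice without it develop chronic bile duct injury and inflammation that end in liver cancer. Tumours of the liver differ from normal liver in several layers at once: the metabolic programme of the hepatocytes, the cycling of cells, and the immune and stromal cells that come with them. The liver is also among the most sex-dimorphic organs of the mouse, with many enzymes and carriers set by the male or female pattern of growth hormone secretion.

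All values below are deposited log ratios of sample over reference RNA, averaged over both dye orientations and read as log2. Neither the base nor the direction of the ratio is stated in the sources used here. The direction is likely sample over reference, because the 32 measured hepatocyte markers averaged 5.35 in the liver. The 22 arrays held 19576 to 25000 values each out of 37632 spots. Both arrays of a sample correlated at 0.861 to 0.988, with the spread of the dye difference (SD) at 0.216 to 0.305 in 6 tumours and at 0.662 to 0.758 in the other 4 tumours and the liver. Eif2s3y, a gene of the Y chromosome, read 2.34, 1.63 and 2.46 in the tumours labelled IkB-SR 6, 8 and 9 and -4.01 to -2.98 in the other 7 tumours, against 2.33 in the liver. Nfkbia, the gene for IkB-alpha, read 0.003 in the sample labelled IkB-SR replicate 8, against 1.69 to 3.11 in the other 5 IkB-SR tumours. The Mdr2-KO tumours read 0.04 to 0.30, so the Nfkbia of that sample goes against its label. Whether the label is wrong or the transgene was not expressed was not tested. Without that sample the sets held 83 and 30 features. The Abcb4 probe read 2.26 to 3.54 in the 10 tumours. It had a value on 1 of the 2 liver arrays, 4.46 with the sample in Cy5, which is not averaged over both dyes. Where the probe lies relative to the deleted part is not known here. Abcb4 therefore checks no label.

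The feature of widest margin in the higher set was a probe without a gene name, whose nearest tumour lay 3.02 log2 units above the liver, and the named genes of widest margin were Cd36, Osbpl3 and Abcd2. Genes of lipid metabolism as a whole lay near the liver. Of 29 measured genes of lipogenesis and lipid storage, 2 were in the higher set, Cd36 and Lpl, while 4 lay above and 2 below the liver in all 10 tumours, with a median of 0.14. Of 32 genes of fatty acid oxidation and peroxisomes, 1 was in the higher set, Crat, with 5 above and 4 below in all 10 and a median of 0.01.

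Cd36, a fatty acid translocase of the cell surface, read 2.46 at its lowest, 2.94 at the median and 3.66 at its highest over the 10 tumours, against -0.34 in the liver. All tumours lay at least 2.80 log2 units above the liver, and the tumour mean of 2.97 ± 0.33 (SD, n = 10) was 9.92-fold higher. Abcd2, a peroxisomal carrier of very long chain fatty acids, read 1.75, 3.12 and 3.51 as lowest, median and highest, against -0.71 in the liver, a mean difference of 3.72. Osbpl3, an oxysterol-binding protein, read -0.94, 0.01 and 0.68 in the tumours, against -3.50 in the liver, a mean difference of 3.44. Neither gene had a tumour within 2 log2 units of the liver.

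Lpl, lipoprotein lipase, read 0.82, 1.26 and 1.75 over the tumours, against -1.56 in the liver, a mean difference of 2.84. Its probes disagreed in size, with mean differences of 1.45 and 4.23 for the complete probes and 4.21 for a probe measured in 9 tumours, and they agreed in direction. Pparg, the nuclear receptor that drives fat storage, read 1.30, 1.88 and 2.37 in the tumours, against -0.33 in the liver, a mean difference of 2.15. Crat, carnitine acetyltransferase, averaged 0.97 ± 0.34 in the tumours (SD, n = 10) and -0.87 in the liver. Plpp2, a lipid phosphate phosphatase, averaged 0.92 ± 0.33 in the tumours and -1.41 in the liver.

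Lpl and Pparg also stand on the list of adipocyte markers. Of its 5 measured genes, those 2 were in the higher set, while Plin1 and Lep, which mark fat cells, differed from the liver by -0.06 each on average, and Fabp4 by 0.66. The log2 ratios of the 5 genes summed to 4.96 to 8.04 in the tumours and to 0.927 in the liver. Such a sum of log ratios is not a total of RNA. The part of fat cells in the result was not tested. In bulk RNA, more cells of a type and more RNA per cell cannot be told apart, and this holds for every gene below.

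**Figure D1:**
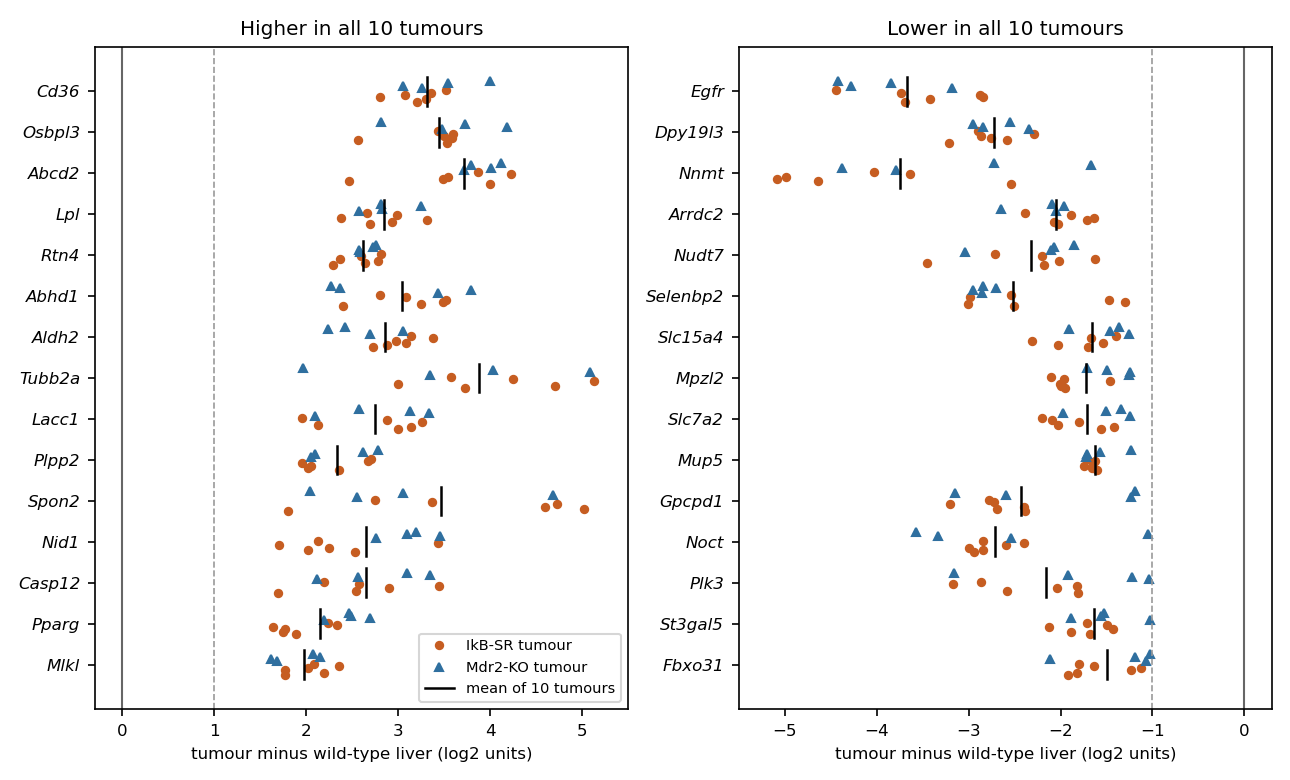
Tumour minus wild-type liver, in log2 units, for the 15 named genes of each set whose nearest tumour lies farthest from the liver. Each point is 1 tumour, circles for IkB-SR and triangles for Mdr2-KO, the bar is the mean of the 10 tumours, the solid line is the liver and the dashed line is the margin of 1 log2 unit. Every point lies beyond the dashed line, with Cd36 at 2.80 or more on the higher side and Egfr at -2.84 or less on the lower side.

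Among enzymes of aldehyde, drug and redox metabolism, Aldh2, mitochondrial aldehyde dehydrogenase, read 1.98, 2.67 and 3.12 in the tumours, against -0.26 in the liver, a mean difference of 2.86. Of 29 measured aldehyde and alcohol dehydrogenase genes it was the sole member of either set, and the median of the list was -0.07. Mgst3, a microsomal glutathione transferase, read 1.18, 1.85 and 2.54 in the tumours, against -0.38 in the liver. Tpmt, thiopurine methyltransferase, read 3.63, 4.35 and 5.16 in the tumours, against 2.53 in the liver.

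Srxn1, sulfiredoxin, a target of the antioxidant factor NRF2, read 0.84, 0.99 and 1.63 in the tumours, against -0.41 in the liver. Its 2 probes differed in size, at 2.35 and 0.67 on average, and the second did not reach the margin in every tumour. Of 31 measured glutathione transferase and NRF2 target genes, 13 lay above the liver in all 10 tumours and 1 below in all 10, with 2 in the higher set. The median of the list was 0.39, beside -0.003 over all features. Other NRF2 targets lay above the liver in every tumour without reaching the margin in each, Nqo1 with a mean difference of 2.31 and Hmox1 with 1.19.

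Cytochrome P450 genes went both ways. Of 30 measured members of families 1 to 4, 2 were in the higher set, Cyp2c38 with 3.75, 4.88 and 5.68 in the tumours, against 2.69 in the liver, and Cyp3a41a with 3.53, 5.33 and 6.74 in the tumours, against 2.52 in the liver. A further 7 of the 30 lay below the liver in all 10 tumours, and the median of the family was -0.14. A Cyp2c38 probe did not reach the margin in every tumour, with the nearest 0.65 above the liver. Near-identical members of the Cyp2c and Cyp3a families may share probe signal, so their single values are uncertain.

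The features of widest margin in the lower set were 2 probes without a gene name, whose nearest tumours lay at -3.80 and -3.71 from the liver. Among named genes the widest margin was that of Egfr, the receptor of epidermal growth factor, which normal hepatocytes express at a high level. Egfr read -0.80, -0.07 and 0.80 over the tumours, against 3.65 in the liver, so that every tumour lay at least 2.84 log2 units lower and the mean was 12.8-fold lower. All 3 of its probes were lower in each tumour measured, with mean differences of -3.57, -2.82 and -3.78. Nnmt, which methylates nicotinamide, read -2.29, -1.11 and 1.13 in the tumours, against 2.80 in the liver, and had the widest spread of the named lower genes (SD 1.13, n = 10). Dpy19l3, a C-mannosyltransferase, read -2.12, -1.72 and -1.20 in the tumours, against 1.08 in the liver. Its SD of 0.29 was small beside its mean difference of -2.73.

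Slc7a2, a carrier of cationic amino acids, read 1.23, 1.76 and 2.19 in the tumours, against 3.44 in the liver, with complete probes at -2.43 and -1.01 on average. The second of these probes did not reach the margin in every tumour, with the nearest at -0.36 from the liver. A probe measured in 4 tumours differed by -0.45 on average. Noct, a circadian enzyme also called nocturnin, read -0.93, -0.20 and 1.60 in the tumours, against 2.64 in the liver. Gpcpd1, a glycerophosphocholine phosphodiesterase, read 0.98, 1.53 and 2.99 in the tumours, against 4.17 in the liver. Plk3, a stress-responsive kinase, was the 1 member of the sets among 22 measured p53 targets, at -0.66, 0.54 and 1.48 in the tumours, against 2.51 in the liver. Of those 22 genes, 8 lay above the liver in all 10 tumours and 1 below, with a median of 0.41. St3gal5, the GM3 synthase, and Fbxo31, an F-box protein, had the narrowest margins of the named lower genes, with mean differences of -1.63 and -1.49. A Fbxo31 probe did not reach the margin in every tumour, with the nearest at -0.78 from the liver. Around Slc7a2, 10 of 37 measured solute carriers of the liver lay below the liver in all 10 tumours and 4 above, with a median of -0.28. The shares of all features were 9.38% below and 14.1% above.

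Genes with a sex difference in mouse liver stood on both sides. Of 12 measured genes on the list of male-biased genes, 9 lay below the liver in all 10 tumours and 4 were in the lower set, Egfr, Selenbp2, Nudt7 and Mup5. Of 15 measured female-biased genes, 6 lay above the liver in all 10 tumours and 4 were in the higher set, Cd36, Abcd2, Rtn4 and Cyp3a41a. Over all features, 9.38% lay below the liver in all 10 tumours and 14.1% above it. The median difference was -1.55 for the male-biased list and 0.77 for the female-biased list. Both lists were written with earlier results of these data known.

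Selenbp2, a selenium-binding protein, read 2.76, 2.99 and 4.46 in the tumours, against 5.76 in the liver. Nudt7, a peroxisomal coenzyme A hydrolase, read 1.73, 3.03 and 3.55 in the tumours, against 5.18 in the liver. Mup5, a major urinary protein, read 0.27, 0.36 and 0.78 in the tumours, against 2.01 in the liver, and belongs to a family of near-identical copies. Rtn4, the reticulon also called Nogo, read -0.79, -0.46 and -0.27 in the tumours, against -3.08 in the liver, and had a spread of 0.17 (SD, n = 10).

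Eif2s3y also differed between the liver and most tumours. The liver and 3 tumours read Eif2s3y above 0, and 7 tumours read it below 0, so 7 of the 10 tumours differed from the liver in this Y-linked gene. In the 3 tumours that resembled the liver in Eif2s3y, all labelled IkB-SR, the male-biased list had a median of -1.06, against -1.55 in the other 7. For tumours 6, 8 and 9 singly it was -1.35, -0.53 and -1.80, and the value nearest 0 is that of the sample labelled IkB-SR replicate 8, whose Nfkbia goes against its label. The female-biased list had medians of 0.53 in the 3 tumours and 0.66 in the 7. For tumours 6, 8 and 9 singly it was 0.05, 0.33 and 0.91, and in the other 7 it ran from 0.09 to 1.19. It was thus close to the liver in some tumours of both kinds. Egfr lay 3.05 log2 units below the liver on average in the 3 tumours and 3.94 in the 7, and Cd36 lay 3.05 above it in the 3 and 3.42 in the 7. By the rule each member also held in the 3 tumours that resembled the liver. Sex and tumour state cannot be told apart in the other 7.

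**Figure D2:**
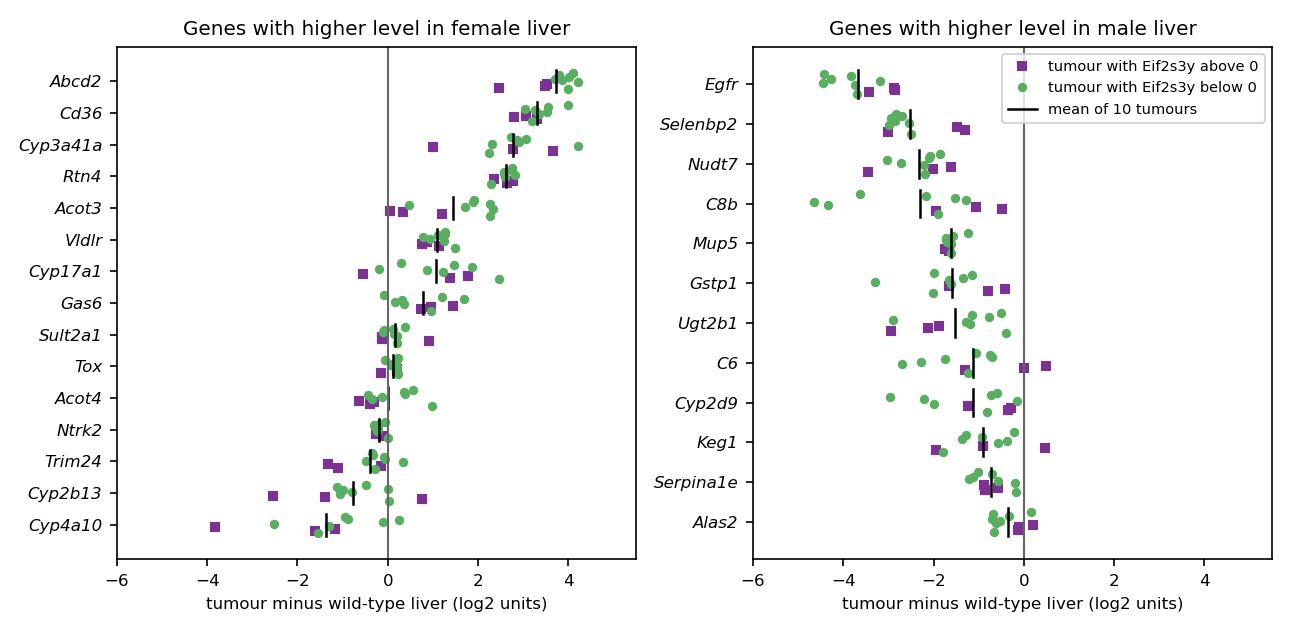
Tumour minus wild-type liver, in log2 units, for the measured genes with a higher level in female liver (left) and in male liver (right). Squares are the 3 tumours with Eif2s3y above 0, as in the liver, circles are the 7 tumours with Eif2s3y below 0, and bars are means of the 10 tumours. The median differences are 0.77 for the female-biased and -1.55 for the male-biased list, and both kinds of tumour stand on the same side of the liver for Egfr and Cd36.

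Genes with values on all 20 tumour arrays and on neither liver array numbered 14, of which 10 had names, and the reverse held for 7, of which 5 had names. No fold can be given for them. Cyp2c39 read 4.45, 5.80 and 6.42 in the tumours, Cyp3a44 read 1.40, 2.40 and 4.63, and both had no listed liver value. Prom1, the progenitor marker also called CD133, read 1.35, 4.51 and 5.40 in the tumours, with the lowest value in IkB-SR tumour 6, and Corin, a serine protease, read 1.01, 2.96 and 3.51. Hsd3b5, a steroid dehydrogenase of male liver, read 6.38 in the liver and had no listed value on any tumour array. Moxd1 read 4.14 and Mup4, another urinary protein, 2.86 in the liver under the same pattern. Cyp3a44 and Prom1 stand on the female-biased list, and Hsd3b5 and Moxd1 on the male-biased one. How the authors chose which values to leave out is not stated in the labels.

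Genes of macrophages and monocytes lay above the liver as a group. Of 22 measured markers, 17 were above it in all 10 tumours, none was below it in all 10, and 4 were in the higher set. The matching shares of all features were 14.1%, 9.38% and 0.525%. The marker list was chosen with earlier results of these data known. The median of the list was 0.96 and ran from 0.59 to 1.54 over single tumours. Cd14, a co-receptor for bacterial lipopolysaccharide, read -2.01, -1.51 and 0.22 in the tumours, against -3.55 in the liver. Cybb, the catalytic subunit of the phagocyte oxidase, read 1.67, 2.03 and 3.68 in the tumours, against 0.53 in the liver, with the highest value in the sample labelled IkB-SR replicate 8. Ctss, cathepsin S, read -0.07, 0.79 and 1.33 in the tumours, against -1.12 in the liver. Cd9, a tetraspanin that other cells also carry, read -1.62, -1.11 and -0.73 in the tumours, against -3.22 in the liver.

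The log2 ratios of the macrophage markers summed to 5.15 to 23.3 in the tumours and to -8.33 in the liver. The defining marker Cd68 lay above the liver in all tumours, with a mean difference of 1.86, as did Adgre1 with 0.76 and Lyz2 with 1.23. Kupffer cell markers, which label resident macrophages, had a median of 0.38 over 11 genes, and 1 of the 11 was above the liver in all tumours. Their median was -0.06 in the IkB-SR tumours and 0.90 in the Mdr2-KO tumours, with single tumours between -0.18 and 1.23, and this difference between genotypes was not tested for the list. The part of cell numbers in the higher set was not tested.

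Of 3 measured neutrophil markers, 2 lay above the liver in all 10 tumours, Lcn2 with a mean difference of 2.81 and Mmp9 with 0.88, while S100a8 lay above it in 8 tumours, with 1.21. The median of these 3 was 1.21, with single tumours between 0.61 and 3.4, and Lcn2 is also an acute phase gene of hepatocytes. The 10 measured B and plasma cell markers had a median of 0.34, with 4 above the liver in all tumours.

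Markers of hepatocytes and bile ducts were closer to the liver. The 32 measured hepatocyte markers had a median difference of -0.01, with none in either set. Their medians in single tumours ran from -0.43 to 0.49, and 2 of the 32 lay below the liver in all 10 tumours and none above. The log2 ratios of the 32 markers summed to 156 to 184 in the tumours and to 171 in the liver. Alb, albumin, read 5.54, 6.27 and 7.44 in the tumours, against 6.13 in the liver. The 10 measured cholangiocyte markers had a median of -0.03, and Krt19 and Epcam differed by -0.01 and -0.25 on average. The 32 stellate cell and matrix genes had a median of 0.25 with 8 above the liver in all tumours, Col1a1 among them with a mean difference of 0.86. The 7 measured skin keratinocyte markers, looked at because of the extraction text, had a median of -0.06.

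Many proliferation and progenitor genes lay above the liver in all 10 tumours, mostly without reaching the margin in each. Of 56 measured cell cycle and replication genes, 34 lay above the liver in all 10 tumours, 1 lay below in all 10 and none was in either set, with a median of 0.64. Among all features, 14.1% lay above in all 10 and 9.38% below. The tumour mean was at least 1 log2 unit above the liver for 15 of the 56. Cenpi, a centromere protein gene that is not on this list, was in the higher set, with a mean difference of 1.35. Mki67, a marker of cycling cells, read -4.58, -3.95 and -2.70 in the tumours, against -5.16 in the liver, and its nearest tumour was 0.58 above. Of 25 measured oncofetal and progenitor genes, 10 lay above the liver in all tumours, 10 had a tumour mean at least 1 log2 unit above it, and 2 were in the higher set, Abcd2 and Golm1. Abcd2 is the peroxisomal carrier described above and stands on the female-biased list too. Like the other lists, the oncofetal list was chosen with earlier results of these data known, so its count is a description alone. Golm1, a Golgi protein that has been studied as a serum marker of liver cancer, read -1.42, -0.31 and 0.79 in the tumours, against -2.89 in the liver. Afp, alpha-fetoprotein, read 1.65 to 2.46 in 8 tumours. Gpc3, glypican 3, read 1.34 to 3.17 in 5, the 4 Mdr2-KO tumours and IkB-SR tumour 10. Neither gene had values on both liver arrays. With the sample in Cy5, the liver read 0.694 for Afp and 1.205 for Gpc3, values not averaged over both dyes.

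**Figure D3:**
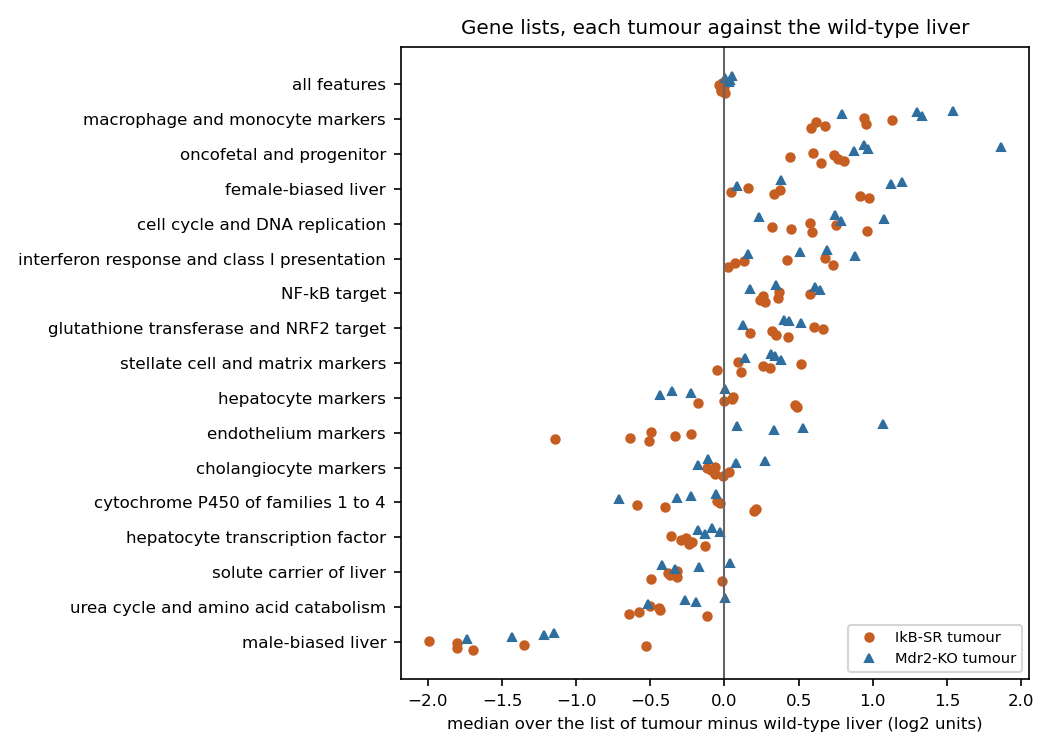
Median over each gene list of tumour minus wild-type liver, in log2 units, with 1 point per tumour, circles for IkB-SR and triangles for Mdr2-KO. Macrophage and monocyte markers lie between 0.59 and 1.54 in every tumour and male-biased genes between -1.99 and -0.53, while all features lie between -0.03 and 0.05.

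Stress, death and remodelling genes made up part of the rest of the higher set. Casp12, an endoplasmic reticulum caspase, read -0.28, 0.60 and 1.47 in the tumours, against -1.97 in the liver. Mlkl, the executor of necroptosis, read -0.77, -0.34 and -0.02 in the tumours, against -2.39 in the liver. Atf3, a stress-induced transcription factor, read -1.05, -0.71 and -0.20 in the tumours, against -2.58 in the liver, and was the 1 member of the sets among 26 measured endoplasmic reticulum stress genes, whose median was -0.10. Nid1, a basement membrane protein, averaged -0.25 ± 0.63 in the tumours (SD, n = 10) and -2.90 in the liver. Plat, tissue plasminogen activator, read -3.30, -2.93 and -1.68 in the tumours, against -4.32 in the liver. S100a10, the annexin partner, read -1.49, -0.81 and 0.15 in the tumours, against -2.64 in the liver. Of 28 measured NF-kB targets, 15 lay above the liver in all 10 tumours and none was in either set, with a median of 0.43. The share of all features above the liver in all 10 was 14.1%.

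Members differed in how alike the tumours were. Spon2, a secreted matrix protein, had the widest spread of the named higher genes (SD 1.21, n = 10), at -1.80, -0.39 and 1.42 in the tumours, against -3.60 in the liver. Tceal8, Mfge8, Tubb2a and Sectm1a followed with SDs of 1.11, 1.07, 0.98 and 0.94. Tubb2a, a beta tubulin, had the widest mean difference of the named higher genes at 3.88, with 0.29, 2.21 and 3.46 in the tumours, against -1.67 in the liver. At the other end, Rtn4, Nipa1 and Galk1 had SDs of 0.17, 0.19 and 0.20. The median SD was 0.46 over the 77 higher and 0.40 over the 26 lower features, beside 0.24 over all features.

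The margin cut through a continuum. Just inside it on the higher side, the nearest tumour lay 1.01, 1.01 and 1.00 above the liver for Cyp3a41a, Plxna2 and Btg1, and just outside it lay 0.999, 0.999 and 0.999 above for Cenpt, Lgals1 and Mcam. On the lower side the nearest tumours of Plk3, St3gal5 and Fbxo31 lay 1.03, 1.03 and 1.02 below, against 0.93 below for Map3k5, Slc16a10 and Chac1. By the tumour mean alone, 529 features lay at least 1 log2 unit above the liver (3.61%) and 186 below (1.27%). Counting any distance, 2071 features lay above the liver in all 10 tumours (14.1%) and 1374 below (9.38%). Single tumours had 468 to 990 features at least 1 log2 unit above the liver and 197 to 515 at least 1 log2 unit below. The correlation with the liver over all features was 0.914 to 0.948, a description in which all points share the reference RNA.

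**Figure D4:**
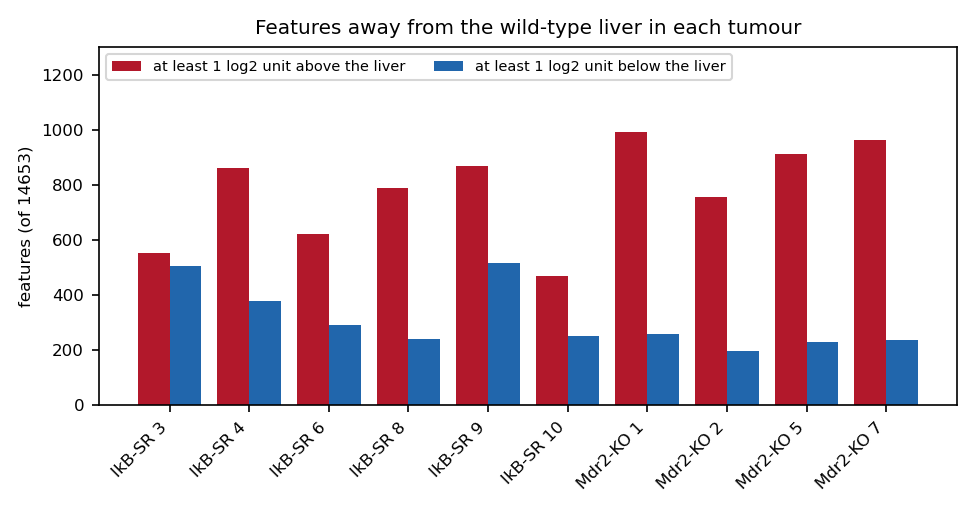
Number of features, of 14653, that lie at least 1 log2 unit above (red) or below (blue) the wild-type liver in each tumour. IkB-SR tumour 10 has the fewest above the liver with 468 and Mdr2-KO tumour 1 the most with 990.

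The dye mattered for the size of the differences. All 77 higher and all 26 lower features lay on the same side of the liver in every tumour with either dye alone. The rule had used the mean of these same arrays, so this agreement was in large part built in and adds no support. With the sample in Cy3 alone, 39 of the 77 and 25 of the 26 kept the full margin, and with Cy5 alone 67 and 15 did.

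Whether the members differed between the genotypes is a comparison the rule did not use. By limma, 0 of 18188 features (0%) differed between IkB-SR and Mdr2-KO tumours at a Benjamini-Hochberg adjusted p under 0.05, and 2258 (12.4%) at an unadjusted p under 0.05. Of the 77 higher features 6 had an unadjusted p under 0.05 (7.79%), 3 in each direction, and of the 26 lower features 1 did (3.85%). The count of 0 depended on the processing: 5 features passed when probes lacking values in some samples were averaged in, 36 without Mdr2-KO tumour 2, 12 without the sample labelled IkB-SR replicate 8 and 11 without IkB-SR tumour 4. None of these was a member of either set. The smallest adjusted p values by limma were 0.211 in the higher and 0.197 in the lower set. The sample titles number the tumours and name no animal, so the spread is that between tumours, taken here as coming from separate mice.

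Pparg had the smallest p of the higher set, at 1.90, 2.00, 1.30, 1.44, 1.41 and 1.55 in the tumours labelled IkB-SR 3, 4, 6, 8, 9 and 10, against 2.13, 2.15, 2.37 and 1.86 in Mdr2-KO tumours 1, 2, 5 and 7. The groups overlapped, and the difference was -0.53 ± 0.16 (SE, limma adjusted p = 0.211). Mpzl2, a cell adhesion protein, had the smallest p of the lower set, at 0.98, 1.12, 1.63, 1.07, 1.09 and 1.13 in IkB-SR tumours, against 1.37, 1.59, 1.84 and 1.83 in Mdr2-KO tumours. These groups overlapped too, with a difference of -0.49 ± 0.14 (SE, limma adjusted p = 0.197). Aldh2 differed by 0.43 and Nid1 by -0.78, with limma adjusted p values of 0.340 and 0.328.

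Promoter sequence was read for the named member of widest margin on either side, Cd36 and Egfr, and for Srxn1. The Srxn1 window held a pair of matches to TGANTCA, the AP-1 element. Longer antioxidant response elements were not searched for. The windows are the 250 bases before the start of each gene in RefSeq, mouse build GRCm38.p6, at chr5:17835897-17836146 on the minus strand for Cd36, chr11:16751953-16752202 on the plus strand for Egfr and chr2:152105274-152105523 on the plus strand for Srxn1. They are shown 5′ to 3′, with matches to TGANTCA in capitals.
Cd36: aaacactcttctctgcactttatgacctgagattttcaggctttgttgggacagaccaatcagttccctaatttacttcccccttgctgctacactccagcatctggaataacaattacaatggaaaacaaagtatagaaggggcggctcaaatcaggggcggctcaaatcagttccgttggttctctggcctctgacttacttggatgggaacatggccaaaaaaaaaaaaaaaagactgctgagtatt
Egfr: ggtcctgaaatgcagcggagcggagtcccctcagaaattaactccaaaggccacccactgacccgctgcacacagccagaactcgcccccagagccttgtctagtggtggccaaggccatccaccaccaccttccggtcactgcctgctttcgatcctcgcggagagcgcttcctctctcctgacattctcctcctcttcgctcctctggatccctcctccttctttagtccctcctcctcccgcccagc
Srxn1: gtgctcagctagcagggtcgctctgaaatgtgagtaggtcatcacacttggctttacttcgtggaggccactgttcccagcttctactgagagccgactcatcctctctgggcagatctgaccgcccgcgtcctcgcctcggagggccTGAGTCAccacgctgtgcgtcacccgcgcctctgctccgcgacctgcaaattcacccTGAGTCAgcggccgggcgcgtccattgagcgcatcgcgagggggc
The Srxn1 matches begin 102 and 45 bases before the start, and the other windows held none. RefSeq windows were found for 55 of the 76 named members, as 69 windows. TGANTCA was in 7.25% of these windows and in 6.75% of all 32851. Over both strands, the STAT5 element TTCNNNGAA was in 7.25% and 7.02%, the E-box CACGTG in 8.70% and 6.02%, the TATA element TATAAA in 14.5% and 12.4%, and the SP1 element GGGGCGGGG in 24.6% and 10.4%. Both spellings searched of the direct repeat bound by PPAR and RXR, were in none of the member windows and in 0.0335% and 0.0274% of all. Srxn1 was picked for display after the matches were seen, and a match of letters is a description of the window and not a binding site.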

How the data were processed

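RNA of 6 IkB-SR tumours, 4 Mdr2-KO tumours and 1 wild-type liver was hybridised against a universal mouse reference on 22 2-colour arrays. The deposited log2 ratios (base read as log2, not stated) were used as given; the authors' background correction, normalization and filter are not stated in the sources available. The number of arrays limits the precision. Of 37632 spots, 20879 had 1 gene symbol, 16753 none and 0 several; 5005 symbols were updated through RefSeq GRCm38.p6 and 186 kept. The 2 arrays of a sample were averaged, both being required. Probes with values in all 11 samples were then averaged per gene.

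That probe rule was adopted after results had been seen. Gene values were first averaged over all probes, per array and later per sample; probes missing in some samples then mixed into a gene's tumour-to-liver difference (Glyat entered the lower set that way), and the rule was changed. The earlier versions gave 76 higher and 26 lower features and 5 genotype calls in place of 0; both are kept as alternatives.

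Tumours and liver were compared without a test. IkB-SR and Mdr2-KO tumours were compared with limma 3.58.1 (R 4.3.3), 3 group means over 11 samples, features needing values from 4 or more IkB-SR tumours and 3 or more Mdr2-KO ones, two-sided, Benjamini-Hochberg threshold 0.05. The fit was tested on simulated data. No 2 samples held identical values. Samples were grouped by the submitters' titles.

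Genes named were drawn from the 15 of widest margin per set and up to 4 set members per list. Others were the 3 just inside and outside the margin, the most and least variable, and the 4 of smallest genotype p. Further ones were genes with values on one side alone and a fixed list of 12. Not all of these genes are described. The members, lists and this rule were chosen with earlier results of these data known. Genes in sentences on whole lists (such as Nqo1, Hmox1, Cd68, Lcn2 and Plin1) were named after their values were seen. Alternatives varied the margin, arrays required, probes, scaling, dye, Eif2s3y, dye class and each tumour; Python 3.11.15 with pandas 2.3.3 computed them.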

Additional observations from a re-analysis of the deposited data

Results flagged for a closer look

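Of 154 groups of values tested among the named genes, 9 held 1 tumour that stood apart from the rest of its group by Dixon's gap criterion, and chance alone flags about 1 in 20 groups. Among IkB-SR tumours these were Osbpl3 in tumour 9, at -0.94 with the others between -0.07 and 0.10, Mpzl2 in tumour 6, at 1.63 with the others between 0.98 and 1.13, and Spam1 in tumour 4, at 0.32 with the others between -0.71 and -0.39. Cybb stood out in the sample labelled IkB-SR replicate 8, at 3.68 with the others between 1.67 and 2.17, and Prom1 in tumour 6, at 1.35 with the others between 4.08 and 4.94.

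Among Mdr2-KO tumours, Fbxo31 was low in tumour 5, at 0.0387 with the others between 0.96 and 1.13. Crat was high in the same tumour, at 1.74 with the others between 0.70 and 0.86. Plat was high in tumour 2, at -1.68 with the others between -3.30 and -3.05. Sectm1a, a secreted immune protein, was high in tumour 1, at 2.83 with the others between 0.24 and 0.48.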

How the results depend on the processing

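No paired analysis was possible because the tumours carry different numbers in the 2 genotypes, and the number 1 of the liver only names it. The count of higher and lower features (77 and 26) was 273 and 81 at a 1.5-fold margin and 8 and 5 at a 4-fold margin. It was 43 and 40 with the sample in Cy3 only, 118 and 20 with Cy5 only, 50 and 31 after quantile normalization, 198 and 72 over the 4 tumours with a wide dye difference, and 263 and 117 over the 3 tumours with Eif2s3y above 0; fewer tumours have to meet the rule in the last pair. Without each tumour in turn it ran from 80 to 90 and from 27 to 36. With all probes averaged, in either order, it was 76 and 26. All other settings run stayed within 1.5 times. Features called between the genotypes numbered 0, against 5 with all probes averaged in either order (Cat, Ccl24, Fbl, Folr2 and Timd4 with probes averaged first), where the smallest adjusted p of the reported limma fit was 0.0532, so this count depends on probe averaging, and the reported averaging was chosen after seeing the data. It was 9 after centring each array, 20 after quantile normalization, 3 with dye class as a block, 4 with values required in all 11 samples, and 0 to 36 without each tumour in turn (36 without Mdr2-KO tumour 2, 12 without the sample labelled IkB-SR replicate 8, 11 without IkB-SR tumour 4). No setting called a feature of the higher or lower set. The cause of these shifts was not tested. Of the values for gene lists 49 moved by more than the spread between tumours and 719 did not, and of those for named genes 34 moved and 1172 did not.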

Other observations

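Some groups of liver genes lay on one side of the liver by less than the margin. Of 54 measured genes of the urea cycle and amino acid catabolism, 15 lay below the wild-type liver in all 10 tumours and none above, with a median difference of -0.34. Of 29 measured hepatocyte transcription factors, 6 lay below it in all tumours and none above, with a median of -0.16. Of 33 measured interferon response and class I presentation genes, 9 lay above the liver in all tumours and none below, with a median of 0.51. The 42 measured genes of the mitochondrial respiratory chain had a median of 0.003 and none lay on one side in all 10 tumours. Over all features the median was -0.003, with 9.38% below the liver in all 10 tumours and 14.1% above. The 19 measured endothelium markers had list medians between -1.14 and 1.07 over single tumours, below the liver in the 6 IkB-SR tumours and above it in the 4 Mdr2-KO tumours, a difference that was not tested for the list.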
